A study of Mus musculus with 6 samples.

Results

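Neutrophil granule protein genes were followed across 6 mouse fetal liver arrays. The 10 genes were chosen by name, and no measured value enters the rule, although earlier results of these data were known. Mpo, Elane, Prtn3 and Ctsg encode proteins of the primary (azurophil) granules, and Camp, Ngp, Ltf, S100a8, S100a9 and Fcnb encode proteins counted here as later, most of them stored in granules formed after the primary ones. All 11 probes of the 10 genes were taken, Camp having 2 probes and every other gene 1, out of 55681 non-control probes with 27248 named for 20667 genes. On all 6 arrays every member probe lay well above background, and none was saturated.

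The arrays held 1 sample for each of 6 groups of E18.5 (late embryonic) fetal liver cells on a C57BL6/J background. Wild type littermates and Satb1-null mice each gave 3 sorted populations, and no group carried a treatment. Satb1 encodes a chromatin organizer, and per the series text the question was which genes its loss affects. All 3 populations lacked lineage markers (Lin-). HSC (stem cell enriched) were c-kitHi Sca-1+ Flt3-, LMPP (lymphoid-primed multipotent progenitor enriched) were c-kitHi Sca-1+ Flt3+, and CLP (common lymphoid progenitor enriched) were c-kitLo Sca-1Lo IL7Rα+. The labels do not state how many embryos stand behind a sample, and populations of 1 genotype may share embryos.

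Neutrophil precursors fill their granules in waves. Promyelocytes make the serine proteases and myeloperoxidase of the primary granules, myelocytes and metamyelocytes make lactoferrin and cathelicidin for the specific granules, and transcription factors of the C/EBP family together with PU.1 drive these genes. Fetal liver is the main site of blood formation before birth, and stem and multipotent progenitor cells are known to carry low amounts of some primary granule transcripts before they commit.

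A level below is log2 of the processed signal minus log2 of the array's 75th percentile. A difference of 1 between levels is therefore 2-fold. Levels of different probes are not comparable, so only differences are set beside each other across genes. The scanner's own pixel error of a member's difference was about 0.20, and it covers reading of the spots only. With 1 array per group, a difference between 2 arrays has no replicate check and no test. Tests came from 1 limma fit over all 6 arrays with terms for genotype and population, in which a population had 2 arrays and a genotype 3. Its p-values measure only how population differences varied between the genotypes. A call is an adjusted p under 0.05 (Benjamini-Hochberg over 30570 probes). In bulk samples, fewer cells of a type and less RNA per cell cannot be told apart.

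On the 6 arrays 52.4% to 57.7% of spots were well above background and none was saturated, and the 75th percentile signal ran from 176.2 to 230.1. Centring on the median in place of that percentile moved the median of all probes for CLP against HSC in wild type from -0.04 to 0.47. Il7r, whose product defines the CLP gate, rose from HSC to CLP by 3.76 ± 0.34 (SE, limma adjusted p = 0.039). The Flt3 level was highest in the 2 LMPP arrays, 3.21 and 3.32. Kit and Ly6a (Sca-1), low in the CLP gate, differed between CLP and HSC by -1.26 ± 0.36 (SE, limma adjusted p = 0.14) and -0.47 ± 0.35 (adjusted p = 0.48), and neither was called. The Satb1 level was -0.03, 2.0 and 0.71 in the wild type HSC, LMPP and CLP arrays and -0.59, 1.96 and 0.65 in the null populations. The part of Satb1 that its probe reads is not known here, so these values do not check the genotype label. Xist, transcribed from the inactive X chromosome, was bright on the null arrays alone, and Eif2s3y, a Y-linked gene, was brighter on every wild type array. The wild type arrays also lay in slide row 1 and the null arrays in row 2. Genotype, this sex-linked signal and slide row cannot be told apart in any comparison of null with wild type. HSC lay in slide column 1, LMPP in column 2 and CLP in column 3 in both genotypes, so population and slide column cannot be told apart either.

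All 10 genes were highest in CLP in both genotypes. For all 11 probes, both CLP arrays lay above the other 4 arrays, a pattern that 16% of the 30570 probes showed. The later genes Camp, Ngp, Ltf, S100a8 and Fcnb rose 13.4-fold to 31.4-fold from LMPP to CLP, and Elane and Ctsg rose 16.1-fold and 5.75-fold. All of these passed the limma test as higher, when 1.61% of the 30570 probes did. The later gene S100a9 (3.03-fold), Mpo (2.45-fold) and Prtn3 (2.53-fold) did not pass. From HSC to CLP the same 5 later genes rose 16.6-fold to 27.5-fold and passed, when 1.19% of probes did. Neither S100a9 (3.68-fold) nor any of the 4 primary genes passed there, Elane having 4.13-fold. From HSC to LMPP no member passed the test, and no probe of 30570 (0%) did.

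**Figure D1:**
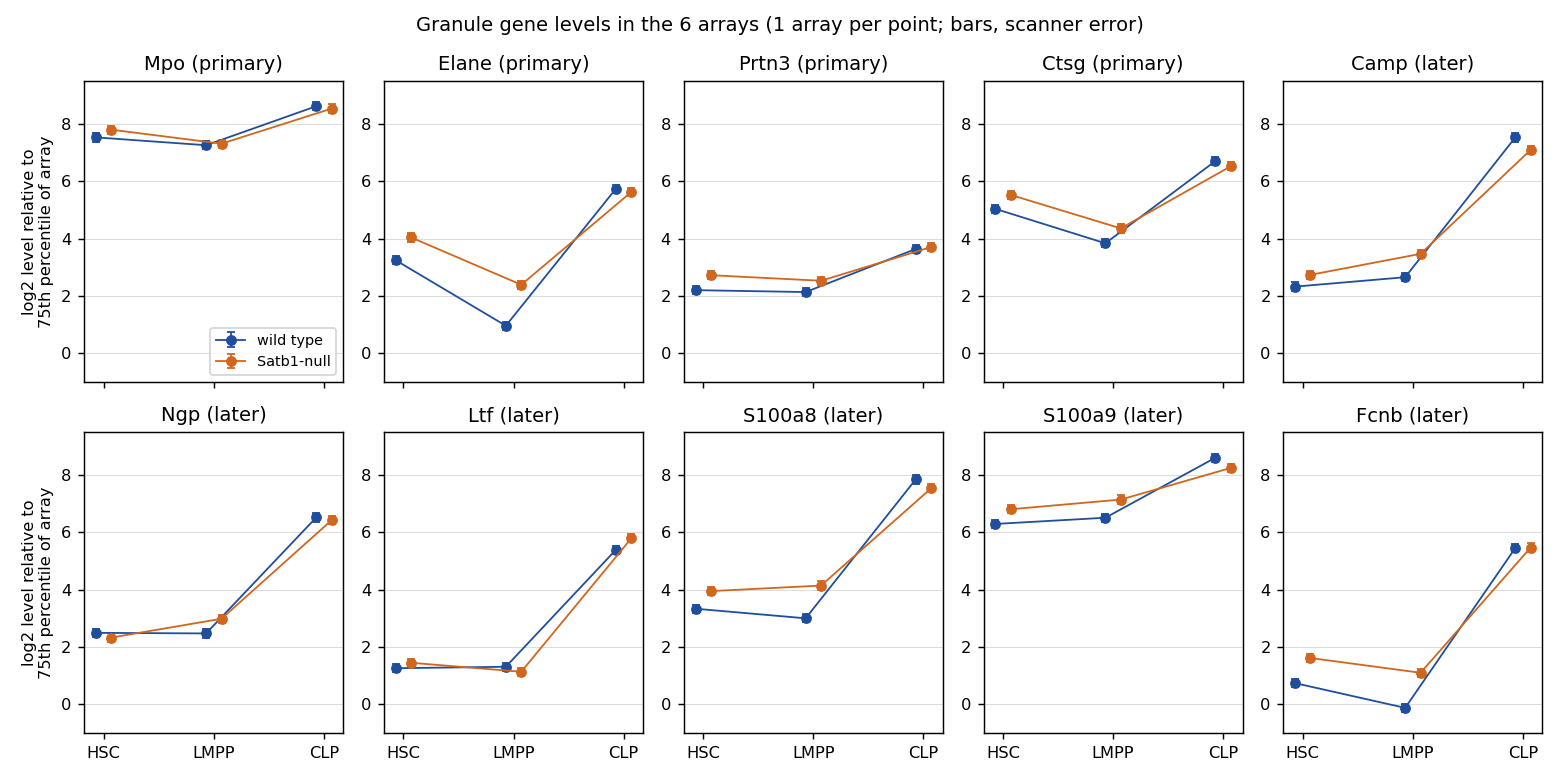
Level of each granule gene (log2 relative to the array's 75th percentile, vertical axis) in HSC, LMPP and CLP (horizontal axis) of wild type and Satb1-null mice, 1 array per point, first probe of Camp, with bars for the scanner's pixel error. Every gene is highest in the CLP arrays, Elane from 0.96 in wild type LMPP to 5.74 in wild type CLP, and in CLP the genotypes lie within 0.43 of each other.

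Among the primary granule genes, Mpo encodes myeloperoxidase, which makes hypochlorous acid in the phagosome. Its level (probe A_55_P1995537) was 7.53, 7.26 and 8.62 in the wild type HSC, LMPP and CLP arrays and 7.80, 7.31 and 8.54 in the null populations. Mpo was bright on every array, and its CLP arrays lay 0.74 above the highest of the others. The limma difference of CLP from LMPP was 1.29 ± 0.25 (SE, adjusted p = 0.081) and that of CLP from HSC 0.91 ± 0.25 (adjusted p = 0.14).

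Elane encodes neutrophil elastase, a serine protease of the primary granule. Its level (A_66_P137219) was 3.24, 0.96 and 5.74 in the wild type HSC, LMPP and CLP arrays and 4.04, 2.39 and 5.63 in the null populations. LMPP was lowest and CLP highest in both genotypes, and the null LMPP array lay above the wild type one. Elane rose from LMPP to CLP by 4.01 ± 0.44 (SE, limma adjusted p = 0.039), and its CLP minus HSC difference was 2.05 ± 0.44 (adjusted p = 0.093).

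Prtn3 encodes proteinase 3, a related serine protease, and lies next to Elane on chromosome 10 with 0 annotated genes between them. The Prtn3 level (A_51_P209818) was 2.20, 2.13 and 3.64 in the wild type HSC, LMPP and CLP arrays and 2.72, 2.53 and 3.70 in the null populations. HSC and LMPP were close together in each genotype, within the scanner error, and CLP stood above both. The CLP minus LMPP difference of Prtn3 was 1.34 ± 0.26 (SE, limma adjusted p = 0.082) and its CLP minus HSC difference 1.21 ± 0.26 (adjusted p = 0.095).

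Ctsg encodes cathepsin G, the remaining serine protease of the group. Its level (A_51_P416546) was 5.04, 3.84 and 6.71 in the wild type HSC, LMPP and CLP arrays and 5.52, 4.36 and 6.53 in the null populations. As for Elane, LMPP was lowest and CLP highest in both genotypes. Ctsg rose from LMPP to CLP by 2.52 ± 0.30 (SE, limma adjusted p = 0.042), and its CLP minus HSC difference was 1.34 ± 0.30 (adjusted p = 0.10).

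The primary genes were not alike in the step from HSC to LMPP. Elane was lower in LMPP by 2.28 in wild type and by 1.65 in null cells, and Ctsg by 1.20 and 1.17. Prtn3, the neighbour of Elane, differed by -0.07 and -0.19, and Mpo by -0.27 and -0.49. Only Elane and Ctsg were at least 2-fold lower among the 11 probes, in either genotype, against 10.9% of 33572 probes in wild type and 9.75% of 32436 in null cells. No probe of 30570 (0%) was called in the limma fit for LMPP against HSC, where 2421 had an unadjusted p under 0.05. Elane had -1.97 ± 0.44 (SE, unadjusted p = 0.0089, limma adjusted p = 0.59) and Ctsg -1.19 ± 0.30 (unadjusted p = 0.015, limma adjusted p = 0.61). With arrays centred on their medians, Prtn3 turned to 0.21 in wild type and the Ctsg difference there became -0.93. The median of all probes for LMPP against HSC in wild type moved from 0.11 to 0.39 under that centring. Prtn3 lay below that median under both centrings.

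Promoter sequence is shown for Elane and Prtn3 because these neighbours differed in that step. The 250 bases before the annotated start come from RefSeq (GRCm38.p6), at chr10:79886062-79886311, plus strand, and chr10:79879417-79879666, plus strand. Capitals mark matches, on either strand, to 3 motifs that were searched by their letters: TTNNGCAA for C/EBP factors, GAGGAA for PU.1 and TGTGGT for RUNX factors. Both sequences hold 1 match to the PU.1 letters, which begins 85 bases before the start of Elane and 95 before that of Prtn3, and no match to the other motifs.
Elane: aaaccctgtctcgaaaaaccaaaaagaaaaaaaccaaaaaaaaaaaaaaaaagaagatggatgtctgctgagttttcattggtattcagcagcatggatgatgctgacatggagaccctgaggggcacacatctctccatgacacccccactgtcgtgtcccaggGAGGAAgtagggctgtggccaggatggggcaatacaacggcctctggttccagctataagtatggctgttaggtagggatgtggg
Prtn3: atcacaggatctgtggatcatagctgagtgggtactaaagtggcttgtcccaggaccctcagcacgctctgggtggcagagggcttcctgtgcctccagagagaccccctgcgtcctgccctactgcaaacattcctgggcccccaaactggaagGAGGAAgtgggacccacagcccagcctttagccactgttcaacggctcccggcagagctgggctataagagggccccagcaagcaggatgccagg

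Among the later genes, Camp encodes cathelicidin, an antimicrobial peptide precursor of the specific granules. Its first probe (A_55_P2039699) gave 2.32, 2.65 and 7.53 in the wild type HSC, LMPP and CLP arrays and 2.74, 3.47 and 7.10 in the null populations. The second (A_55_P2158102) gave 1.07, 1.33 and 6.22 and then 1.44, 2.08 and 5.82. Both probes showed the same order, with CLP far above LMPP and LMPP above HSC in each genotype. In wild type cells LMPP lay above HSC by only 0.33 and 0.26. With the 75th percentile taken over detected probes, no later gene exceeded 0.10 in that comparison, which is within the scanner error. Camp rose from LMPP to CLP by 4.25 ± 0.39 (SE, limma adjusted p = 0.035) on the first probe and 4.31 ± 0.37 (adjusted p = 0.035) on the second, and from HSC to CLP by 4.78 ± 0.39 (adjusted p = 0.037) and 4.76 ± 0.37 (adjusted p = 0.035).

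Ngp encodes neutrophilic granule protein, a cathelicidin-like protein whose gene lies on chromosome 9 like Camp and Ltf. The Ngp level (A_52_P429450) was 2.49, 2.47 and 6.52 in the wild type HSC, LMPP and CLP arrays and 2.33, 2.99 and 6.43 in the null populations. HSC and LMPP differed by less than the scanner error in wild type cells, and the CLP arrays lay 3.44 above the highest of the others. Ngp rose by 3.74 ± 0.30 (SE, limma adjusted p = 0.035) from LMPP to CLP and by 4.06 ± 0.30 (adjusted p = 0.035) from HSC.

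Ltf encodes lactoferrin, the iron-binding protein that defines the specific granules. Its level (A_52_P15388) was 1.26, 1.31 and 5.40 in the wild type HSC, LMPP and CLP arrays and 1.45, 1.13 and 5.80 in the null populations. Ltf was the only member with a higher value in null than in wild type CLP beyond the scanner error. It rose by 4.37 ± 0.28 (SE, limma adjusted p = 0.035) from LMPP to CLP and by 4.24 ± 0.28 (adjusted p = 0.035) from HSC.

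S100a8 and S100a9 encode the subunits of calprotectin, an abundant calcium- and zinc-binding complex of neutrophil cytosol, and are neighbours on chromosome 3 with 0 annotated genes between them. The S100a8 level (A_51_P256827) was 3.34, 3.0 and 7.85 in the wild type HSC, LMPP and CLP arrays and 3.95, 4.14 and 7.54 in the null populations. The S100a9 level (A_55_P1998471) was 6.29, 6.51 and 8.61 and then 6.81, 7.15 and 8.25. Both were highest in CLP, but the step was larger for S100a8, which rose by 4.12 ± 0.42 (SE, limma adjusted p = 0.037) from LMPP and by 4.05 ± 0.42 (adjusted p = 0.041) from HSC. For S100a9 the corresponding differences were 1.60 ± 0.35 (limma adjusted p = 0.096) and 1.88 ± 0.35 (adjusted p = 0.075). The difference between the 2 genes was not tested.

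Fcnb encodes ficolin B, a lectin of myeloid cells that activates complement. Its level (A_52_P676359) was 0.74, -0.13 and 5.45 in the wild type HSC, LMPP and CLP arrays and 1.61, 1.1 and 5.47 in the null populations. Fcnb was higher in both null progenitor populations than in the matching wild type ones, and in CLP the genotypes differed by less than the scanner error. In the fit over both genotypes it had the largest LMPP to CLP step of the members, 4.97 ± 0.38 (SE, limma adjusted p = 0.035), although in null cells the step of Ltf (4.66) exceeded that of Fcnb (4.37). Fcnb rose by 4.29 ± 0.38 (adjusted p = 0.039) from HSC.

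Sequences of 4 later genes are shown for S100a8 and S100a9, neighbours with unequal steps, and for Fcnb and Ngp, which hold 2 matches each to the C/EBP letters. They lie at chr3:90668821-90669070, plus strand, chr3:90695722-90695971, minus strand, chr2:28084879-28085128, minus strand, and chr9:110419558-110419807, plus strand (RefSeq, GRCm38.p6, with the same marks).
S100a8: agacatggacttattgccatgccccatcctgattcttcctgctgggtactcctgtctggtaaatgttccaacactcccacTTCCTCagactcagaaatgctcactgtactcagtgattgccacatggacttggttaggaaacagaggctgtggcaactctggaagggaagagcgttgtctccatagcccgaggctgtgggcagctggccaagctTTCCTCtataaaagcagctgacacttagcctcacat
S100a9: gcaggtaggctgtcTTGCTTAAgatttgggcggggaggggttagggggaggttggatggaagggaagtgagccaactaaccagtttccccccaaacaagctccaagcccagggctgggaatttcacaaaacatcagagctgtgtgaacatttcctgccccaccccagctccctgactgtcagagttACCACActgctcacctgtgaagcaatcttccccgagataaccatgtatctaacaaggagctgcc
Fcnb: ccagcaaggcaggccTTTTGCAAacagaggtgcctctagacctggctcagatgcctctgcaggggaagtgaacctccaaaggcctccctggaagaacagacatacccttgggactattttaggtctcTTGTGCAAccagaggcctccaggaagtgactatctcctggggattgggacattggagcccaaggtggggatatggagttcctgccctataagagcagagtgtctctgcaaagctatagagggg
Ngp: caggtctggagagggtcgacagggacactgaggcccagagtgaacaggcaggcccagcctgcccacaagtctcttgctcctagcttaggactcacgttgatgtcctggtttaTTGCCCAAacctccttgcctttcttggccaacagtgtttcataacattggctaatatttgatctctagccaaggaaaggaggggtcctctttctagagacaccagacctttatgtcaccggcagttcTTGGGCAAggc

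Matches to the C/EBP letters occurred in 4 of the 10 member windows, those of Ngp, Ltf, S100a9 and Fcnb, and in 9.56% of 32851 RefSeq windows of the same length. None of the 4 primary genes had one. The PU.1 letters were found in all 4 primary genes and in Ltf and S100a8, 6 of 10 windows, against 23.3% of all windows. The RUNX letters were found in Ctsg and S100a9, 2 of 10, against 14%. The window of Camp held none of the 3. No match overlapped another in these windows, and a match is a description of letters, not of binding.

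Both groups together, 8 of 11 probes passed the limma test as higher in CLP than in LMPP, when 1.61% of 30570 probes did. They were the probes of Elane, Ctsg, Camp, Ngp, Ltf, S100a8 and Fcnb. For CLP against HSC 6 of 11 passed, all of later genes, when 1.19% of probes did. All 4 primary genes had an unadjusted limma p under 0.05 there, as had 7230 of 30570 probes. The median difference of the primary genes was 1.93 against LMPP and 1.27 against HSC, and that of the later genes 4.19 and 4.15. Over all probes the medians were -0.12 and -0.09. The lowest of the later genes, S100a9, lay below Elane in both comparisons, so the groups overlapped. Every call for a member was lost when any 1 of the 6 arrays was left out (lowest adjusted p 0.072 for CLP against LMPP and 0.078 against HSC), or when undetected probes were tested too (lowest adjusted p 0.070 and 0.071). In those fits no probe at all was called, and the members' differences kept their direction.

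Within each genotype, all 11 probes were at least 2-fold higher in CLP than in LMPP, in wild type cells (13.6% of all probes) and in null cells (13.7%). Against HSC the count was 11 of 11 in wild type cells, where 14.4% of probes were that much higher, and 9 of 11 in null cells, where 13.3% were. Mpo (0.74) and Prtn3 (0.98) were the exceptions in null cells. These counts against HSC depended on the scaling. With the percentile taken over detected probes, Mpo in wild type (0.85) and Ctsg in null cells (0.85) also fell below 2-fold. With median centring, Prtn3 in null cells rose above it (1.24). Comparisons of CLP with HSC and with LMPP share the CLP arrays.

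**Figure D2:**
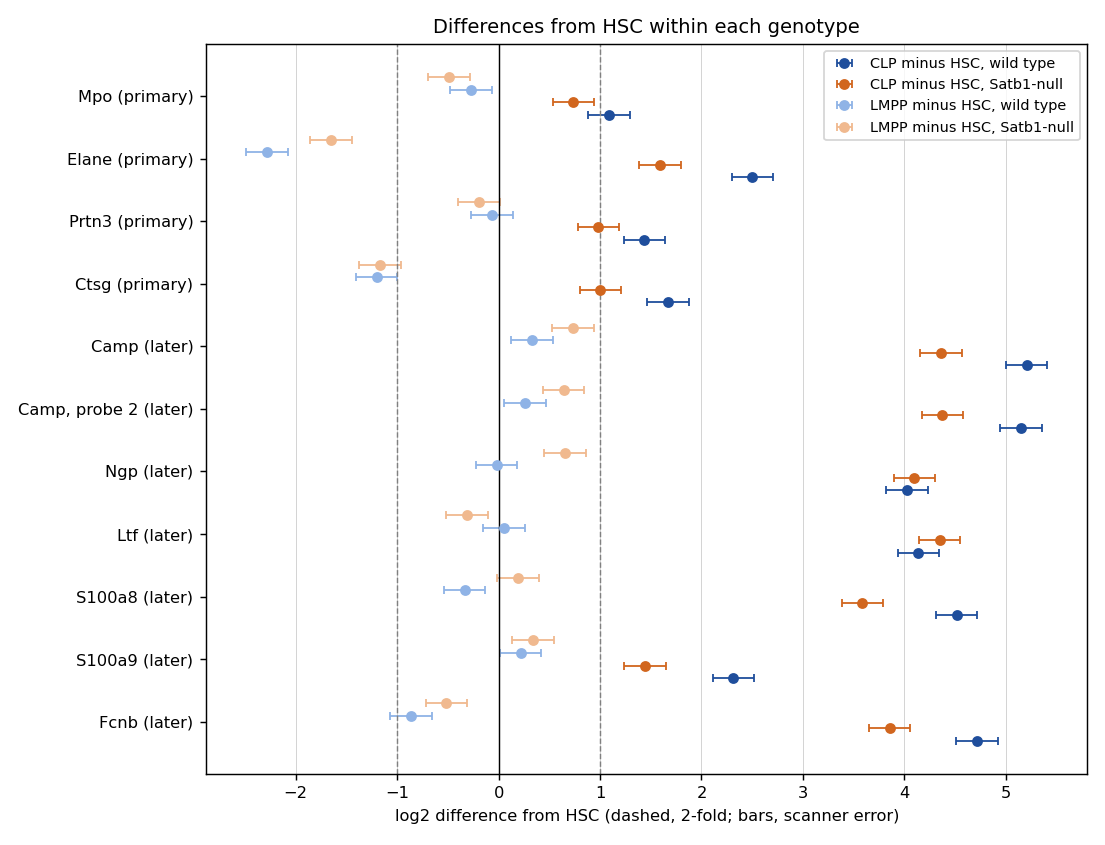
Difference of CLP and of LMPP from HSC within each genotype (log2, horizontal axis) for each member probe (vertical axis), from single arrays, with bars for the scanner error and dashed lines at 2-fold. CLP minus HSC is 4.03 or more in wild type cells for the probes of Camp, Ngp, Ltf, S100a8 and Fcnb and between 1.09 and 2.50 for the primary genes, and LMPP minus HSC is at least 2-fold down only for Elane and Ctsg.

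**Figure D3:**
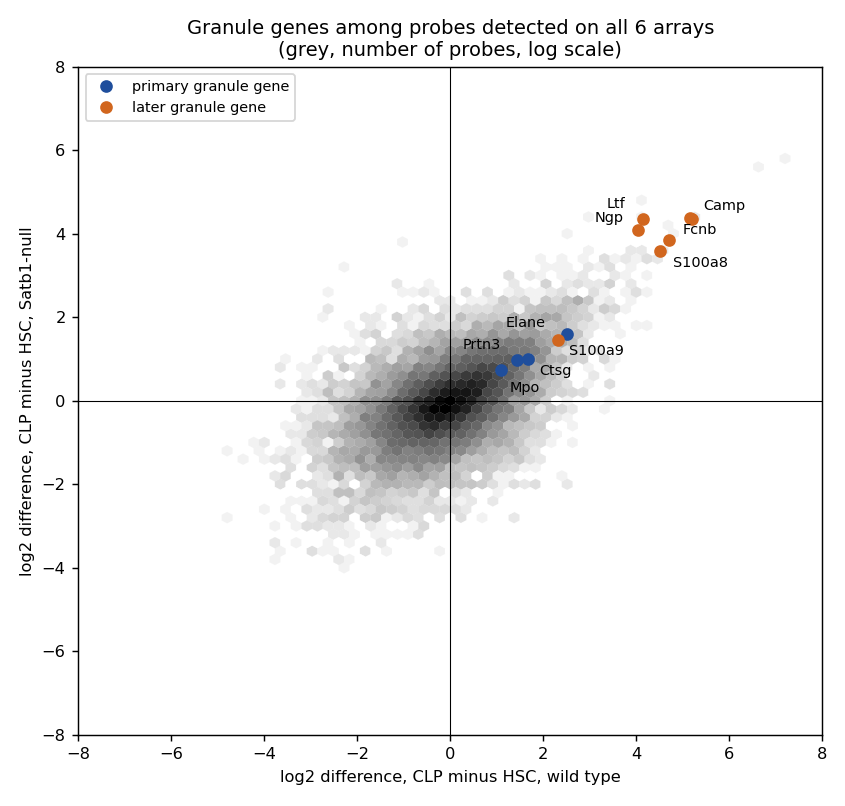
CLP minus HSC (log2) in Satb1-null cells against the same in wild type cells for 23968 probes well above background on all 6 arrays, shaded by number of probes on a log scale, with the member probes as points. Members lie in the upper right, with Camp, Ngp, Ltf, S100a8 and Fcnb at the edge of the cloud and Mpo, Prtn3 and Ctsg inside it.

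The question of the study, the effect of Satb1 loss, rests on 1 array of each genotype per population. In HSC the null minus wild type difference had a median of 0.50 over the primary and 0.46 over the later genes, with 9 of 10 genes above 0. It ran from -0.16 for Ngp to 0.88 for Fcnb, and Elane had 0.80. No member was 2-fold higher or lower, against 7.88% and 10.7% of all probes.

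In LMPP the difference was above 0 for 9 of 10 genes, with medians of 0.46 for the primary and 0.73 for the later genes. Elane (1.43), Fcnb (1.23) and S100a8 (1.14) were at least 2-fold higher in null cells, 3 of 11 probes against 7.12% of all probes, and none was 2-fold lower against 5.92%. Camp followed with 0.82, S100a9 with 0.63, Ctsg with 0.52, Ngp with 0.51 and Prtn3 with 0.40. Mpo differed by 0.05 and Ltf by -0.17, both within the scanner error.

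Markers of other cell types were also higher on the null LMPP array than on the wild type one, and their part in the result was not tested. At least 2-fold higher, as were 7.12% of all probes, were 5 of 7 mast cell and eosinophil markers (median 1.48, Epx 2.42). So were 3 of 5 erythroid genes (median 1.03, Alas2 3.03, Hba-a1 2.40) and 3 of 4 megakaryocyte genes (median 1.67). The same held for 3 of 8 monocyte and macrophage genes, 3 of 7 lymphoid genes and 1 of 7 mature neutrophil genes. Among these, Cpa3, Prss34, Klf1, Vcam1 and Cd5l give lower bounds, being not well above background in wild type LMPP. Lower in null LMPP were, among others, Car1 (-0.95), Tpsb2 (-0.59), Dntt (-0.48) and Rag1 (-0.36). Summed signals, in multiples of the array's 75th percentile, went from 4.77 in wild type to 12.5 in null LMPP for the mast cell and eosinophil list. They went from 19.2 to 80.8 for the erythroid list and from 6.18 to 17.7 for the megakaryocyte list. A sum adds signals of different probes and follows the brightest. Most of these sums came from a single gene per list, Prg2, Hba-a1 and Pf4 in turn.

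In CLP the members were close between the genotypes, with a median of -0.10 and 3 of 10 genes above 0. The values ran from -0.43 for Camp to 0.40 for Ltf, and no member was 2-fold different, against 12.5% of all probes higher and 10.8% lower. Null HSC and null LMPP both lay above wild type for 9 of 11 probes, a pattern of 23.6% of all probes. For 7 of the 11, and for 11.3% of all probes, null CLP was also below wild type CLP.

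Across the 3 populations no member passed the limma test of genotype, and 4 of 30570 probes (0.0131%) did. The largest differences were 0.71 ± 0.31 (SE, limma adjusted p = 0.77) for Fcnb and 0.70 ± 0.36 (adjusted p = 0.77) for Elane. A further limma term, added after the values were seen, compared the genotype difference in CLP with that in HSC and LMPP. It was -1.23 ± 0.53 (SE, limma adjusted p = 0.56) for Elane, -1.19 ± 0.50 (adjusted p = 0.55) for S100a8 and -1.03 ± 0.47 (adjusted p = 0.58) for Fcnb. No probe was called by that term in limma, 3079 had an unadjusted p under 0.05, and none of these were members.

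**Figure D4:**
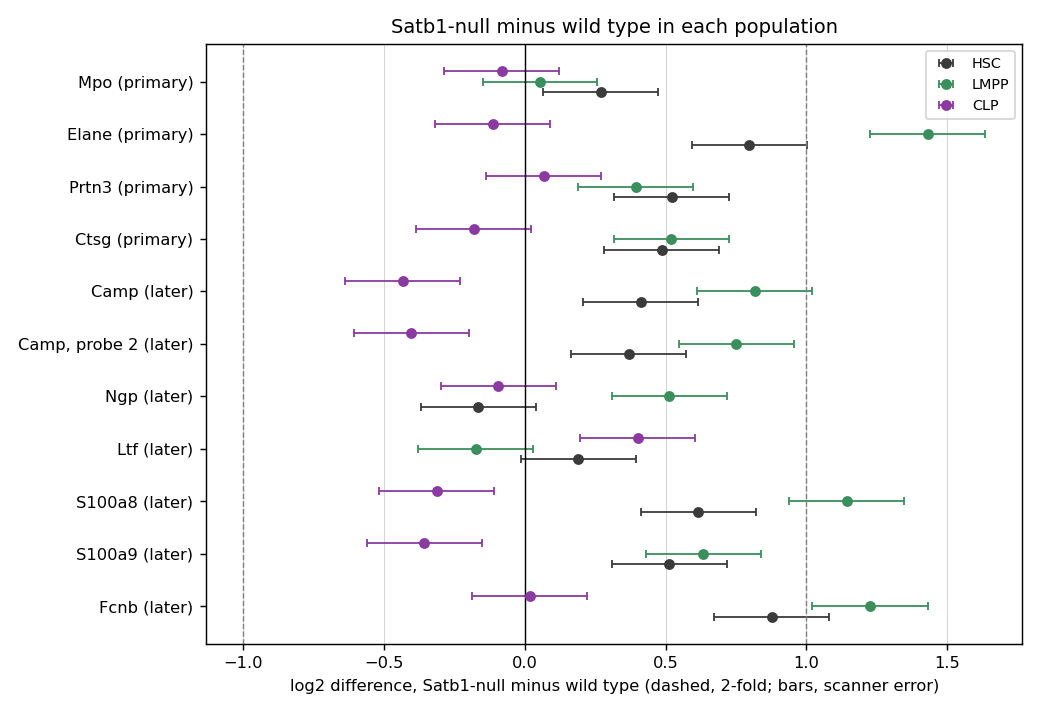
Satb1-null minus wild type (log2, horizontal axis) in HSC, LMPP and CLP for each member probe (vertical axis), 1 array of each genotype, with bars for the scanner error and dashed lines at 2-fold. Elane, Fcnb and S100a8 exceed 2-fold in LMPP (1.43, 1.23 and 1.14), and the CLP values sit between -0.43 and 0.40.

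For this and the following lists, 1.61% of 30570 probes were called higher in CLP against LMPP by the limma test and 1.19% against HSC. Called lower were 1.33% and 1.05%. Of 18 further secondary and tertiary granule genes, 16 were named on the array and 14 tested. Of these, 9 rose in CLP against LMPP and 9 against HSC by the limma test (median difference 3.81 and 3.57). Chil1 and Chil3, chitinase-like proteins, rose by 5.40 and 5.30 from LMPP, Cybb (the NADPH oxidase subunit gp91phox) by 4.76 and Mcemp1 by 4.62. Lcn2 (lipocalin 2) rose by 4.14 from LMPP and 5.40 from HSC, while B2m had -0.59 and Cyba 1.14, neither called. Of 15 further primary granule genes 14 were tested, and 5 rose against LMPP and 4 against HSC (median 1.21 and 1.13). They included Prss57, a neutrophil serine protease, by 3.70 and Lyz2, lysozyme, by 2.80 from LMPP, while Srgn (serglycin, 0.70) and Calr (0.62) were not called. The later members and the further later genes both had larger medians than their primary counterparts, which was not tested. Both further lists were mixed and overlapped. From LMPP to CLP the primary one ran from -0.97 for Gaa to 3.70 for Prss57. The later one ran from -0.59 for B2m to 5.96 for Lrg1, which was not called.

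Regulators of granule genes were all detected on all 6 arrays. Of 12, 4 rose in CLP against LMPP and 5 against HSC in the limma fit. Those called against HSC were Id2, Irf8 (3.69), Ets1 (3.31), Cebpd and Klf5. Cebpe, needed for the specific granules, had levels of 0.39, -0.70 and 4.40 in the wild type HSC, LMPP and CLP arrays and 1.89, -0.14 and 3.93 in the null populations, and rose from LMPP by 4.59 (adjusted p = 0.040). Cebpe was lowest in LMPP and highest in CLP in both genotypes. Its CLP minus HSC difference, 3.03 (limma adjusted p = 0.070), was not called. Id2 (2.96), Cebpd (2.40) and Klf5 (2.10) also rose from LMPP. Gfi1 (1.06), Cebpa (0.85), Spi1, which encodes PU.1 (0.72), and Myb (0.08) were not called. Of 12 promyelocyte genes outside the granule, 10 were tested and 4 rose from LMPP to CLP, among them Hdc (histidine decarboxylase, 4.31) and Ms4a3 (4.07), and 2 from HSC. Fut7 went the other way, with -1.68 from LMPP (limma adjusted p = 0.062). Plac8 (0.21) and Csf3r (-0.03) were not called either.

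Markers of other cell types moved with the granule genes in the CLP arrays, and their part in the result was not tested. Of 10 genes of mast cells, basophils and eosinophils, 7 were tested, and 5 rose against LMPP and 3 against HSC, while 1, Tpsb2, fell against HSC. The eosinophil granule genes Prg2 and Epx rose by 4.38 and 5.55 from LMPP. The summed signal of that list, in multiples of the array's 75th percentile, was 17.6, 4.77 and 196.5 in the wild type HSC, LMPP and CLP arrays. In the null populations it was 23.4, 12.5 and 144.9. Prg2 made up most of the CLP sums. Ms4a2, the IgE receptor subunit of mast cells and basophils, was well above background on 1 array and the basophil protease gene Mcpt8 on 2.

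Of 6 erythroid genes 5 were tested and 1, Klf1, rose in each comparison. The list summed to 19.7, 19.2 and 480.3 in the wild type HSC, LMPP and CLP arrays and 38.4, 80.8 and 498.3 in the null populations. Hba-a1, an alpha globin, made up most of the CLP sums. It had levels of 8.83 and 8.88 in the CLP arrays, and its difference from LMPP was 3.82 (limma adjusted p = 0.061).

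Of 10 mature neutrophil genes 9 were named and 7 tested, with 3 higher against LMPP and 2 against HSC. Mmp8, called against HSC, and Mmp9 also stand in the further secondary and tertiary granule list. The median difference was 2.13 from LMPP and 2.51 from HSC. In wild type cells 7 of 9 genes were at least 2-fold higher in CLP than in LMPP (13.6% of all probes). The count was also 7 of 9 against HSC (14.4%). Cxcr2, a chemokine receptor of mature neutrophils, rose by 3.03 from LMPP. Csf3r (-0.03) and Itgam (-0.21) did not pass the test, and these 2 bright probes set most of the summed signal of the list, which ran from 315.7 to 445.3. Of 12 monocyte and macrophage genes 8 were tested, with 2 higher against LMPP and 3 against HSC, and sums of 103.9 and 107.3 in the CLP arrays against 38.0 to 47.5 in the others. F13a1 made up most of the CLP sums, and C1qa was well above background on 0 arrays. Of 5 hepatocyte genes, markers of the host tissue, 3 were tested and 0 called, Ttr was well above background on 0 arrays, and the sums ran from 2.15 to 3.83. Of 4 megakaryocyte genes 0 were called, with sums of 45.8 and 29.5 in the CLP arrays against 4.10 to 17.7 in the others. Pf4 made up most of the megakaryocyte sums in CLP.

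Of 7 lymphoid genes tested of 8, 1 rose against LMPP (Pax5) and 1 against HSC (Il7r). The list summed to 9.87 and 10.8 in the CLP arrays and to 1.01 to 3.20 in the others. Its brightest genes there were Vpreb1, which was not called, and Il7r, the sort marker. Dntt differed between CLP and LMPP by -0.46 in wild type and -0.79 in null cells. Ebf1 and Cd3e were not well above background on the wild type CLP array, though both were on the null one. Of 6 stem cell genes 5 were tested, and 2 fell against LMPP and 3 against HSC, Procr and Mecom in both. The stem cell list summed to 17.6 and 17.1 in the CLP arrays and to 62.7 to 88.5 in the others.

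**Figure D5:**
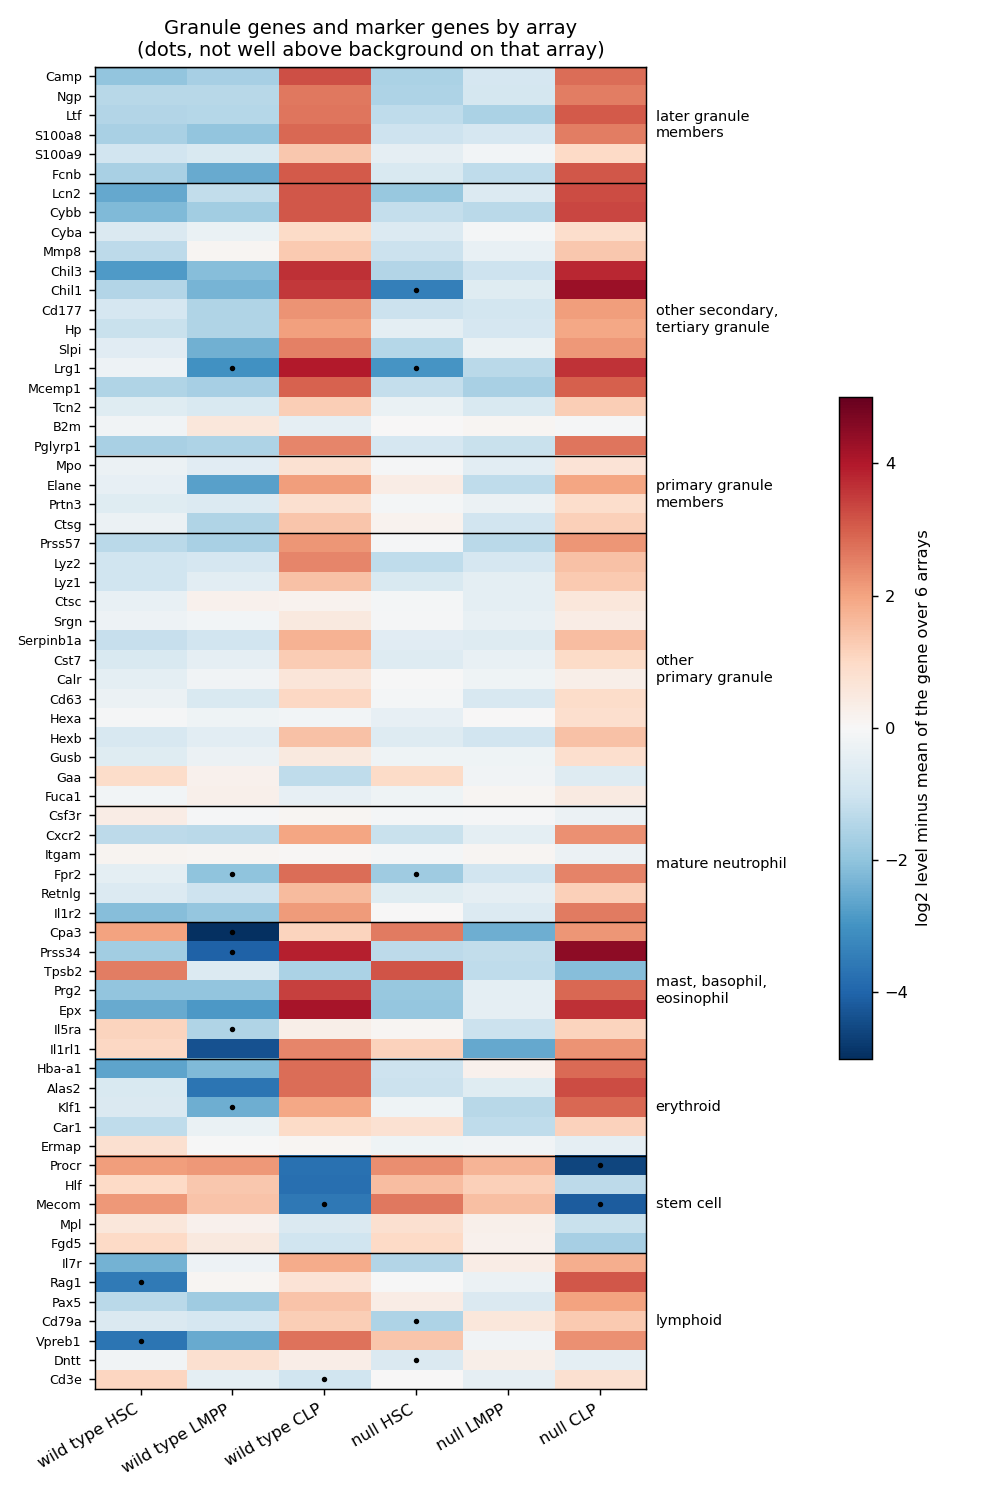
Level of each gene minus its mean over the 6 arrays (log2, colour; values past the ends take the end colours) for 68 member and marker genes (vertical axis) on the 6 arrays (horizontal axis), with a dot where the gene was not well above background. Later granule genes, Prg2, Epx, Hba-a1 and Alas2 are red in both CLP columns, Procr and Mecom are blue there, and Csf3r and Itgam are pale throughout.

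Profiles nearest to the members were sought among 11019 genes by the root mean square difference of log2 profiles, each centred on its own mean over 6 arrays. The arrays are shared by all genes, and CLP against the rest dominates each correlation. Nearest to Camp were Stfa2l1 (0.08, r = 0.999), Cstdc4 (0.20, r = 0.999) and Prg2 (0.25, r = 0.995), the first a stefin and the last the eosinophil major basic protein. Nearest to Ltf were Mcemp1 (0.16, r = 0.998) and Thbs1 (0.23, r = 0.994), and nearest to Ngp was Thbs1 (0.18, r = 0.997). S100a8 was nearest to Pglyrp1 (0.28, r = 0.992), a granule peptidoglycan receptor, and Fcnb to Ank1 (0.14, r = 0.999), an erythroid membrane protein gene.

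Elane had the metallothionein genes Mt2 (0.06, r = 0.999) and Mt1 (0.17, r = 0.995) nearest, then Gata1 (0.17, r = 0.995), a factor of erythroid, mast and eosinophil cells. Ctsg was nearest to Gm1604b (0.18, r = 0.987) and Gstm1 (0.20, r = 0.981). Mpo was nearest to Dolpp1 (0.05, r = 0.996), Prtn3 to Golga2 (0.07, r = 0.995) and S100a9 to Med21 (0.11, r = 0.993). Among the 5 nearest genes of each member, another member appeared only as S100a8, beside Camp (0.34, r = 0.991) and Fcnb (0.38, r = 0.992).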

How the data were processed

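Groups came from sample titles. The authors deposited spot intensity (green processed signal) from Agilent Feature Extraction, version 10.10.1.1 per the file headers and 10.10 per the submitters' processing notes, from 6.1 ng RNA, amplified and Cy3-labelled per the labels' protocols. The authors' table equals that intensity times a constant per array (5.71 to 8.77). Its column medians were 200.1, 140.2, 120.7, 165.3, 145.6 and 124.9 (wild type HSC, LMPP, CLP, then null). Its scale is linear, genes are not centred, no direction applies, and the basis of the constants is unknown.

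Control and outlier spots were left out, log2 intensity was centred on each array's 75th percentile, and probes were named through RefSeq accessions. Python 3.11.15, pandas 2.3.3, R 4.3.3 and limma 3.58.1 (lmFit, eBayes) were used on probes well above background on at least 3 arrays, undetected values being raised to the array's lowest detected signal. The fit was tested on simulated data, where for CLP against HSC most changes of log2 2 were missed and most of log2 4 were recovered. Other genes are shown by their brightest probe. The text names every member, the genes that check the labels and, per list, up to 4 genes with the largest change and up to 2 bright uncalled ones, with the 5 nearest profiles sought for each member. A few further list genes (in the regulator, marker and detection sentences) were chosen after their values were seen. Members and lists were chosen with earlier results of these data known. Normexp used the median signal, because the planned mean signal is not a column here, and was added after the data were seen. Alternatives are given in the closing section. The number of arrays limits precision.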

Additional observations from a re-analysis of the deposited data

Results flagged for a closer look

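Camp, S100a8 and S100a9 were flagged because null cells lay above wild type in HSC and LMPP and below it in CLP, each by more than the scanner error. The signs alone held for 7 of 11 member probes and 11.3% of all probes. The share of all probes that also passed the scanner error was not counted. For Camp the null minus wild type difference was 0.41 in HSC and 0.82 in LMPP against -0.43 in CLP on the first probe, and 0.37 and 0.75 against -0.40 on the second. For S100a8 it was 0.62 and 1.14 against -0.31, and for S100a9 0.51 and 0.63 against -0.36. Each value rests on 1 array per genotype. The difference between HSC and CLP and that between LMPP and CLP were not tested separately. The joint limma term for CLP against both gave adjusted p = 0.55 for S100a8, 0.60 for S100a9 and 0.58 and 0.60 for the Camp probes, with 1 residual degree of freedom.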

How the results depend on the processing

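Member differences in CLP stayed above 0 under every scaling tried. In HSC 10 or 11 of 11 null minus wild type differences stayed above 0, in LMPP 10, and in CLP 2 to 4. Counts of calls moved more. For CLP against LMPP, 898 probes were called (491 higher, 407 lower). The count was 2030 under normexp, 415 under quantile normalization, 434 without the floor and 2819 with an eBayes trend. Without the detection filter it was 0, and member probes also fell from 8 to 0. Median centring gave 742 higher and 426 lower. For CLP against HSC, 687 probes were called (365 higher, 322 lower), with 1367 under median centring (984 higher, 383 lower), 1694 under normexp, 288 under quantile normalization, 290 without the floor, 2332 with a trend and 0 without the filter. The split was 202 higher and 294 lower with the percentile taken over detected probes and 218 and 302 in the authors' values. Member probes called there were 6, with 11 under the trend and 0 without the filter.

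With any 1 array left out, calls of all probes and of members in both CLP comparisons, and of all probes for genotype, ranged from 0 to 0. The 4 genotype calls became 0 under quantile normalization, with detection on all 6 arrays and without the filter. For the counts of member probes that follow, the share of all probes under each setting was not counted. At 1.5-fold, 3 member probes were higher in null HSC, 6 in null LMPP and 3 in null LMPP over null HSC. Both Camp probes were among the 6 and among the last 3. At 3-fold 0 were higher in null LMPP. Median centring gave 1 in null HSC. Member probes lower in LMPP than HSC became 1 in wild type under median centring and 1 at 3-fold in each genotype. The cause was not tested. The fit compares populations within genotype and genotypes within population, and the labels carry no replicate numbers for a further block.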
